A study of Rattus norvegicus with 24 samples.

Results

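The transcripts of 5 kidney injury biomarkers, Havcr1 (kidney injury molecule KIM-1), Lcn2 (neutrophil gelatinase-associated lipocalin, NGAL), Spp1 (osteopontin), Clu (clusterin) and Cd24, were followed in rat kidney through a hypertensive diet study. Members were all probe sets whose only gene symbol in the platform annotation was one of these names. This gave 6 probe sets for 5 genes, of 15923 probe sets on the array, and 1 probe set for each gene except Clu, which had 2. They were 1387965_at (Havcr1), 1387011_at (Lcn2), 1367581_a_at (Spp1), 1369953_a_at (Cd24) and, for Clu, 1367784_a_at and 1388246_at, of which the former, with the higher mean, stands for Clu below. Every animal was a male rat of the SHR-SP strain, a stroke-prone line that develops hypertension spontaneously, so the controls carried the hypertensive background too. From 11 weeks of age they were kept for 2 or 8 weeks either on ordinary powdered chow and water (normal diet) or on 24.5% fat chow and water to which 1% NaCl was added (high salt and fat, here the salt-fat diet). The salt and the fat came as one regimen and no normotensive strain was included here, so each comparison addresses their joint effect in hypertensive animals. Each of the 4 groups held 6 animals, with 1 array of whole-kidney RNA per animal and 24 arrays in all. In whole kidney, a change in the number of cells of a type and a change in RNA per cell cannot be told apart.

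These biomarkers sit at different points of the response of the nephron to damage. KIM-1 is a membrane receptor for phosphatidylserine through which injured proximal tubule cells take up dying neighbours, and its shed ectodomain is measured in urine. NGAL is a secreted lipocalin that binds iron carried by siderophores and is made by injured tubules as well as by neutrophils. Osteopontin is a secreted phosphoprotein that binds integrins and CD44 and attracts macrophages, clusterin is a secreted chaperone, and CD24 is a small lipid-anchored surface glycoprotein carried by immature and regenerating tubule cells.

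Promoter sequences from RefSeq on the rat assembly GRCr8, 300 bases each and running from 250 bases before to 50 bases after the transcription start, were matched by symbol for 4 of the 5 genes. Capitals mark matches to the motifs searched, and shared regulation of these genes was not tested.
Havcr1, chr10:31629528-31629827, plus strand: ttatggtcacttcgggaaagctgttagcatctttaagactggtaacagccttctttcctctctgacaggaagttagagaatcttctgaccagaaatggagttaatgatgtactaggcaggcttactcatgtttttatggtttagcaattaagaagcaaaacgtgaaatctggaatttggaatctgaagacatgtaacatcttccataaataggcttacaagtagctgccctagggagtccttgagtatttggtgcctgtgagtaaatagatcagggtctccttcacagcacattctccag
Lcn2, chr3:36081731-36082030, minus strand: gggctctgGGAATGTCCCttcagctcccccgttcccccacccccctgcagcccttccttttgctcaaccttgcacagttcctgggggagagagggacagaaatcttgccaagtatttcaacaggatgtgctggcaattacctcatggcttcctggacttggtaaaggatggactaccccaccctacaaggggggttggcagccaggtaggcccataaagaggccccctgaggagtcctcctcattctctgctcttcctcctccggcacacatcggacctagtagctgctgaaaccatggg
Spp1, chr14:5619755-5620054, minus strand: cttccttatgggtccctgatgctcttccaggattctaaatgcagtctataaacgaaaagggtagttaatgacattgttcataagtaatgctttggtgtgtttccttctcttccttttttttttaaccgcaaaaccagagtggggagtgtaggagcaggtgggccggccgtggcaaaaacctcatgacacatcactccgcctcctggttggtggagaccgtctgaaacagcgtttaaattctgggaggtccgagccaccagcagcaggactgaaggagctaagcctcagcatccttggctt
Cd24, chr20:48656227-48656526, plus strand: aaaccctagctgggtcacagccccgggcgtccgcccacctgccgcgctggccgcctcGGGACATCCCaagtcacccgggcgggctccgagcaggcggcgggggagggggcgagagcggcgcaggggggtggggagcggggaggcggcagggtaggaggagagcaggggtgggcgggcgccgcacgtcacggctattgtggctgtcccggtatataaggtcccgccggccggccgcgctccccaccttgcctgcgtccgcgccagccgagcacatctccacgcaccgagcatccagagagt
Motifs were searched on both strands: TGANTCA (AP-1), TTCNNNGAA (STAT), CACGTG (E-box) and the NF-kappa-B motif. The NF-kappa-B motif had 1 match in the Lcn2 promoter, from -242 to -233 relative to the start, and 1 in the Cd24 promoter, from -193 to -184. Neither overlapped another motif. Of 33469 rat promoters of this length, 7.51% held the NF-kappa-B motif, 7.33% the AP-1 motif, 8.87% the STAT motif and 6.42% the E-box. The Havcr1 and Spp1 windows held none of these letters, which says nothing about regulation from outside the window.

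Median signals of the arrays were 68.7 to 78.7, and the defining genes of the nephron were measured on every array. Slc34a1, the phosphate transporter of the proximal tubule, lay between 3505 and 6018, and Umod, the uromodulin gene of the thick ascending limb, between 4737 and 6782. The GAPDH 3'/5' signal ratio, which rises when RNA is degraded, averaged 1.22 ± 0.09 (SD, n = 6) in salt-fat kidneys against 1.09 ± 0.07 in normal-diet kidneys at 2 weeks, and 1.16 ± 0.09 against 1.16 ± 0.07 at 8 weeks. The level of 18 spiked control probe sets, centred and on the log2 scale, was -0.13 ± 0.20 against 0.17 ± 0.06 at 2 weeks and 0.10 ± 0.06 against -0.13 ± 0.24 at 8 weeks.

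At 8 weeks all 5 transcripts were higher on the salt-fat diet, and in each of them the lowest kidney on that diet lay above the highest kidney on the normal diet. On the log2(signal + 7.2) scale of the test the increase ran from 2.16-fold for Clu to 7.36-fold for Havcr1, and the ratio of mean signals was 2.26 for Clu and 9.31 for Havcr1, whose normal-diet signals lay around the filter level defined below. At 2 weeks Spp1 and Cd24 passed the test, at 1.91-fold and 1.73-fold on that scale, and the other 3 did not. The normal diet alone showed no called change between 2 and 8 weeks in these 5 genes, where 0.0294% of all probe sets tested were called higher. For diet, 4.55% of all probe sets were called higher at 2 weeks and 5.63% at 8 weeks. At 8 weeks 2.21% had every salt-fat kidney above all normal-diet kidneys. Differences below are in log2(signal + 7.2) ± SE, a scale that understates changes of weakly expressed genes, and adjusted p values are from limma with Benjamini-Hochberg adjustment over 10208 probe sets, with calls at 0.05.

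**Figure D1:**
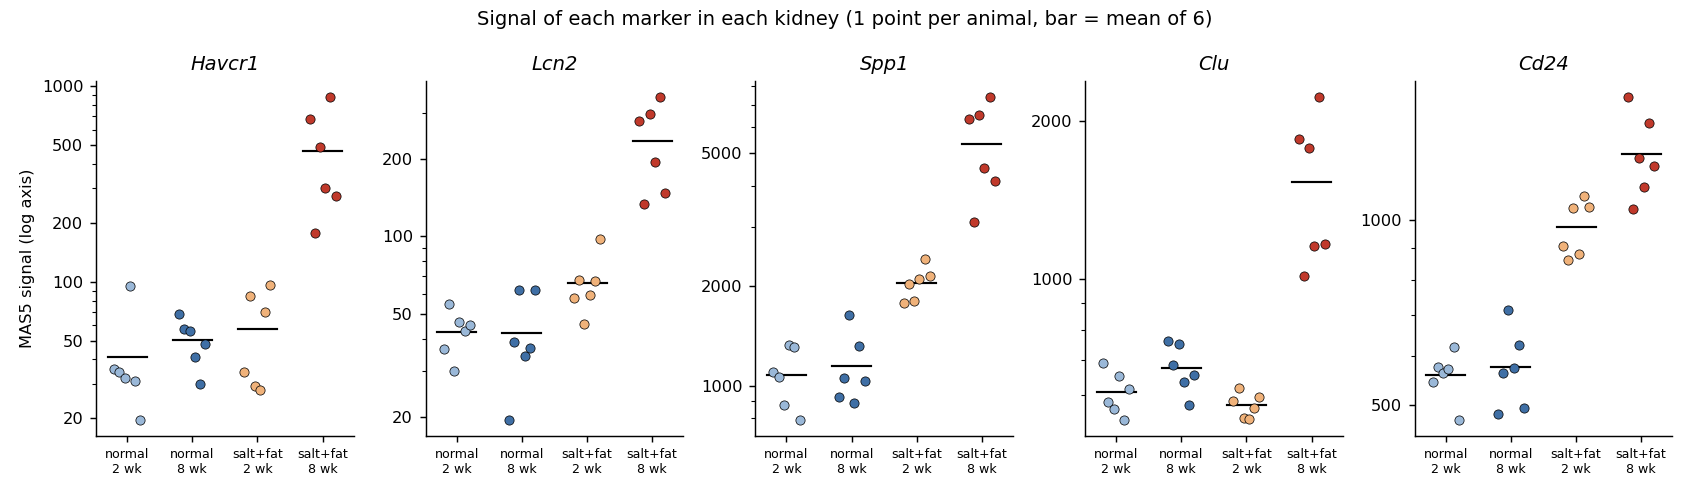
MAS5 signal (log axis) of each biomarker in each of the 24 kidneys, by diet and time, with 1 point per animal and a bar at the mean of 6. At 8 weeks on the salt-fat diet Havcr1 lay between 177 and 879, above all 6 normal-diet kidneys of that time, whose highest value was 68.0.

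Havcr1, the surface receptor of the injured proximal tubule, lay close to or below the middle of the array's signals in 3 of the 4 groups. On the normal diet its lowest, median and highest signals were 19.7, 33.5 and 94.7 at 2 weeks and 30.1, 52.2 and 68.0 at 8 weeks. On the salt-fat diet they were 28.0, 52.4 and 96.0 at 2 weeks and 177, 395 and 879 at 8 weeks. The diets overlapped at 2 weeks and not at 8 weeks. The diet difference was 0.40 ± 0.33 at 2 weeks (adjusted p = 0.515) and 2.88 ± 0.33 at 8 weeks (adjusted p = 2.2e-06), the largest of the 10208 probe sets tested. In order of level, the lower groups were the normal diet at 2 weeks, the normal diet at 8 weeks and the salt-fat diet at 2 weeks. Neighbours among them had no called difference (limma adjusted p = 0.832 and 0.932), and the salt-fat diet at 8 weeks stood above them. Signals exceeded the 40th percentile of their array, the level used as a filter, in 1, 4, 3 and 6 arrays of the normal diet at 2 and 8 weeks and the salt-fat diet at 2 and 8 weeks, so most of the lower values lie where MAS5 signals are least precise.

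Lcn2, the gene of the secreted iron-carrier protein NGAL, was weakly expressed on the normal diet at both times, where 1 and 2 of 6 arrays exceeded the filter level, against 6 of 6 on the salt-fat diet at each time. That level differs between arrays. At 2 weeks a signal of 45.8 exceeded it in salt-fat replicate 3 (level 45.3), and 46.4 did not in normal-diet replicate 4 (level 49.9). Its lowest, median and highest signals on the normal diet were 30.1, 44.1 and 54.5 at 2 weeks and 19.5, 38.0 and 62.2 at 8 weeks. On the salt-fat diet they were 45.8, 63.5 and 98.0 at 2 weeks and 134, 238 and 346 at 8 weeks. At 2 weeks 5 of 6 kidneys on the salt-fat diet lay above all normal-diet kidneys, yet the difference of 0.54 ± 0.22 was not called (adjusted p = 0.139, and 0.0524 to 0.304 over 26 other settings). At 8 weeks the difference was 2.27 ± 0.22 (adjusted p = 1.57e-07), the third largest of all probe sets tested. In order of level, the normal diet at 8 weeks, the normal diet at 2 weeks and the salt-fat diet at 2 weeks had no called difference between neighbours (adjusted p = 0.961 and 0.139). The unadjusted limma p between the diets at 2 weeks was 0.0230, and 22.8% of all probe sets had one under 0.05.

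Neutrophils are another source of Lcn2. Of 12 neutrophil genes listed, 5 were on the array and 0 passed the filter. Their summed signal ranged from 33.5 to 119 on the normal diet at 8 weeks and from 44.1 to 80.5 on the salt-fat diet at that time. S100a8, which encodes an abundant calcium-binding protein of neutrophils, had signals of 0.7 to 3.3 in the 6 kidneys where Lcn2 was highest. Its partner S100a9 had 1.4 to 19.1 there, the upper value being its highest on any array, against 1.3 to 8.2 on the normal diet at 8 weeks. The part of neutrophils in the Lcn2 level was not tested.

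Spp1, the gene of the macrophage-attracting matrix protein osteopontin, was high in every kidney and rose in steps. Its lowest, median and highest signals on the normal diet were 791, 1083 and 1326 at 2 weeks and 888, 1044 and 1637 at 8 weeks. On the salt-fat diet they were 1771, 2055 and 2410 at 2 weeks and 3102.5, 5432 and 7387 at 8 weeks. The diets did not overlap at either time. The difference was 0.93 ± 0.17 at 2 weeks (adjusted p = 0.000971) and 2.19 ± 0.17 at 8 weeks (adjusted p = 5.27e-09, the smallest p of all probe sets tested). In order of level, the normal-diet groups had no called difference (limma adjusted p = 0.938). The salt-fat diet at 2 weeks lay above the normal diet at 8 weeks (limma adjusted p = 0.00211, a contrast called higher in 4.58% of probe sets). The salt-fat diet at 8 weeks lay above both.

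Clu, the gene of the secreted chaperone clusterin, was not called at 2 weeks. Its lowest, median and highest signals at that time were 539, 599.7 and 689.8 in normal-diet kidneys and 539.8, 576 and 619 in salt-fat kidneys, so the diets overlapped throughout. At 8 weeks they were 575, 670.3 and 759.5 in normal-diet kidneys and 1014, 1469 and 2219.5 in salt-fat kidneys. The difference was -0.08 ± 0.13 at 2 weeks (adjusted p = 0.781) and 1.11 ± 0.13 at 8 weeks (adjusted p = 2.52e-06). The 3 lower groups ran in order from the salt-fat diet at 2 weeks through the normal diet at 2 weeks to that at 8 weeks. Neighbours among them had no called difference (limma adjusted p = 0.781 and 0.790). The test used 1 estimate of spread for all 4 groups, so it does not measure the spread of these 3 alone. Their SDs on the log2 scale were 0.076, 0.132 and 0.150 in that order, against 0.458 in the 8-week salt-fat group. That group supplied 82.1% of the squared deviations of Clu from group means. The other Clu probe set had signals of 1.6 to 16.2 over the 24 arrays and passed the filter on 0 arrays. With the mean of both Clu probe sets the difference at 8 weeks was 0.50.

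Cd24, the gene of the surface glycoprotein of immature tubule cells, was raised by the diet at both times. Its lowest, median and highest signals on the normal diet were 472, 567 and 621 at 2 weeks and 482, 569 and 713 at 8 weeks. On the salt-fat diet they were 861.5, 978 and 1095 at 2 weeks and 1041.5, 1245 and 1589 at 8 weeks. The diets did not overlap at either time, whereas the salt-fat groups overlapped each other. The difference was 0.79 ± 0.10 at 2 weeks (adjusted p = 8.95e-06) and 1.14 ± 0.10 at 8 weeks (adjusted p = 1.47e-08). In order of level, the normal-diet groups had no called difference (limma adjusted p = 0.952). The salt-fat diet at 2 weeks lay above the normal diet at 8 weeks (limma adjusted p = 2.33e-05). The salt-fat diet at 8 weeks lay above that at 2 weeks (limma adjusted p = 0.0230), a call that was lost in 9 of 26 other settings.

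Read against the whole array, 2 of 5 biomarkers rose at 2 weeks, where 4.55% of all probe sets tested were called higher, and 5 of 5 at 8 weeks, where 5.63% were. Spp1 and Cd24 were called higher at both times, as were 1.67% of probe sets. The diet groups did not overlap for 2 of 5 biomarkers at 2 weeks and 5 of 5 at 8 weeks, against 2.67% and 2.21% of all probe sets in that direction. At 8 weeks Havcr1, Lcn2 and Spp1 ranked 1, 3 and 4 among 10208 probe sets by size of increase, and Cd24 and Clu ranked 44 and 50. Without normal-diet replicates 1 and 2 at 8 weeks, whose lowest signals were raised, the 8-week count was again 5.

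The diet difference was larger at 8 than at 2 weeks for 4 of the 5 biomarkers, a pattern called higher in 0.343% of all probe sets tested. The interaction, the 8-week difference minus the 2-week difference, was 2.48 ± 0.47 for Havcr1 (adjusted p = 0.0155) and 1.73 ± 0.32 for Lcn2 (adjusted p = 0.0113). It was 1.25 ± 0.24 for Spp1 (adjusted p = 0.0165) and 1.19 ± 0.19 for Clu (adjusted p = 0.00361). For Cd24 it was 0.35 ± 0.14 and was not called (adjusted p = 0.314). With the GAPDH ratio as a covariate only Clu was still called, while Havcr1 had 2.31 (adjusted p = 0.0805; 0.00202 to 0.126 over all other settings). With the mean of both Clu probe sets the Clu interaction was 0.49 and was not called (adjusted p = 0.288; 0.000196 to 0.288). With the spike-in level as a covariate 0 of the 5 were called by limma, and 0 of all probe sets, with values from 1.08 for Spp1 to 2.89 for Havcr1 among the 4 biomarkers. Their adjusted p values there were 0.126 for Havcr1 and Clu, 0.286 for Lcn2 and 0.301 for Spp1 by limma.

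Within each diet, the 8-week kidneys were also compared with the 2-week kidneys, and the interaction above is the test of whether this change differed between the diets. On the salt-fat diet, between 2 and 8 weeks, Havcr1 rose by 2.82 ± 0.33 (adjusted p = 1.11e-05), the largest increase of all probe sets tested, and Lcn2 rose by 1.66 ± 0.22 (adjusted p = 5.32e-05). Clu rose by 1.34 ± 0.13 (adjusted p = 7.95e-07), the smallest p of all probe sets, and Spp1 by 1.33 ± 0.17 (adjusted p = 3.17e-05). Cd24 rose by 0.39 ± 0.10 (adjusted p = 0.0230), a call that was lost without any 1 of salt-fat replicates 1, 2 and 4 at 2 weeks or replicates 1 and 5 at 8 weeks (0.32 to 0.37). It was also lost with median centring, with only the compared groups in the fit and with either covariate (limma adjusted p from 0.00738 to 0.112 over all other settings). All 5 biomarkers were called, against 2.22% of probe sets called higher, and 4 of 5 did not overlap between the times, against 1.15%. On the normal diet limma called 0 of 5 between 2 and 8 weeks, against 0.0294% of probe sets called higher. Of the 5, 0 had an unadjusted p under 0.05, against 8.51% of all probe sets, and 0 of 5 stood clear of the earlier group, against 0.333%. The normal-diet values ran from -0.06 ± 0.22 for Lcn2 to 0.34 ± 0.33 for Havcr1. The time comparison on the salt-fat diet and the diet comparisons share arrays and are not independent of each other.

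**Figure D2:**
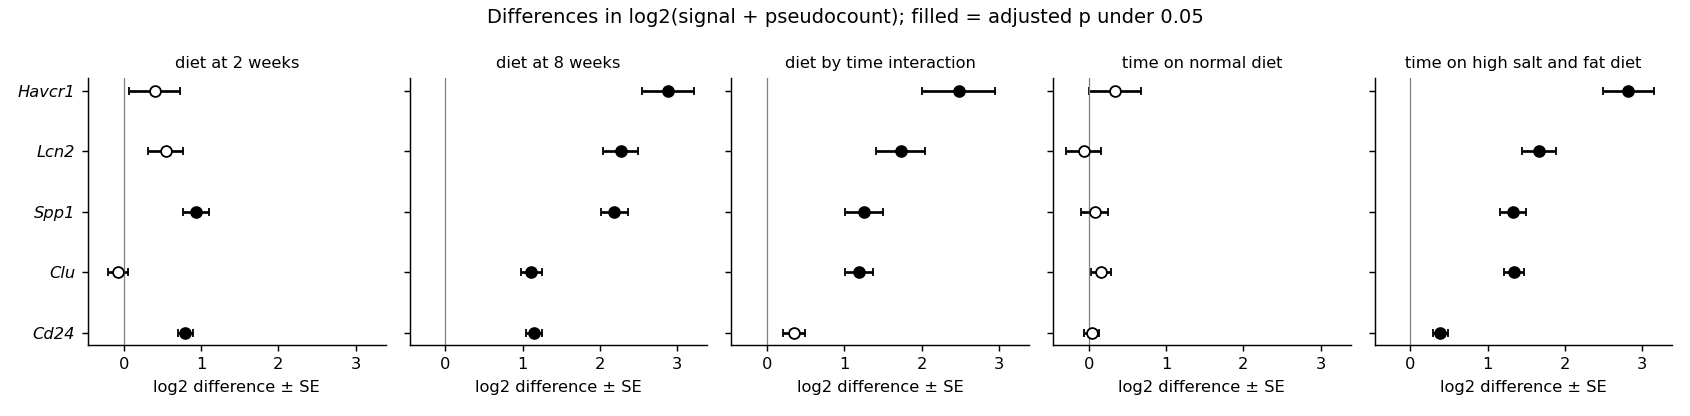
Differences in log2(signal + 7.2) ± SE for the 5 biomarkers in 5 comparisons, with filled points at an adjusted p under 0.05. Spp1 (0.93) and Cd24 (0.79) are the filled points for diet at 2 weeks, and all 5 are filled for diet at 8 weeks.

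Whether the biomarkers differed from each other in response was tested on the log2 ratio of each pair within an array, with exact two-sided permutation tests over the 12 arrays of a time, 20 tests in all and a smallest possible p of 0.00216. These tests were chosen after the responses had been seen. At 2 weeks the Spp1 response exceeded that of Clu by 1.01 ± 0.15 and the Cd24 response exceeded that of Clu (Clu minus Cd24 -0.87 ± 0.12), each beyond all normal-diet arrays in 6 of 6 arrays (exact permutation adjusted p = 0.00618). Lcn2 exceeded Clu by 0.62 ± 0.17 in the same test (exact permutation adjusted p = 0.0108). Spp1 and Cd24 differed by 0.14 ± 0.11 at 2 weeks (exact permutation adjusted p = 0.322).

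At 8 weeks a stronger set (Havcr1, Lcn2 and Spp1) and a weaker set (Clu and Cd24) were read off these same values. Havcr1, Lcn2 and Spp1 each exceeded Clu, by 1.77 ± 0.19, 1.16 ± 0.24 and 1.07 ± 0.15 (exact permutation adjusted p = 0.00618 for each). They also exceeded Cd24, by 1.73 ± 0.33, 1.12 ± 0.25 and 1.04 ± 0.15 (exact permutation adjusted p = 0.00618, 0.0144 and 0.00618). Within the sets, Havcr1 differed from Lcn2 by 0.61 ± 0.32 (exact permutation adjusted p = 0.144) and from Spp1 by 0.69 ± 0.27 (exact permutation adjusted p = 0.0606). Lcn2 and Spp1 differed by 0.08 ± 0.18 (exact permutation adjusted p = 0.720), and Clu and Cd24 by -0.03 ± 0.16 (exact permutation adjusted p = 0.835). The ratios were not recomputed at other pseudocounts. A p that misses the threshold does not show equal responses.

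Within the 8-week salt-fat group the 5 biomarkers rose and fell together from animal to animal. Havcr1 signals in replicates 1 to 6 were 677, 177, 488, 303, 879 and 275. Lcn2 signals in the same order were 280, 134, 297.5, 195, 346 and 147. Spp1 signals were 6352, 3102.5, 6532, 4511, 7387 and 4117. Replicate 5 was the highest and replicate 2 the lowest in each of these transcripts. Clu signals were 1844, 1014, 1775, 1152.5, 2219.5 and 1163, and Cd24 signals were 1589, 1041.5, 1264, 1132, 1439 and 1226. Replicates 1, 3 and 5 were the 3 highest and replicate 2 the lowest kidney for each of the 5 biomarkers.

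**Figure D3:**
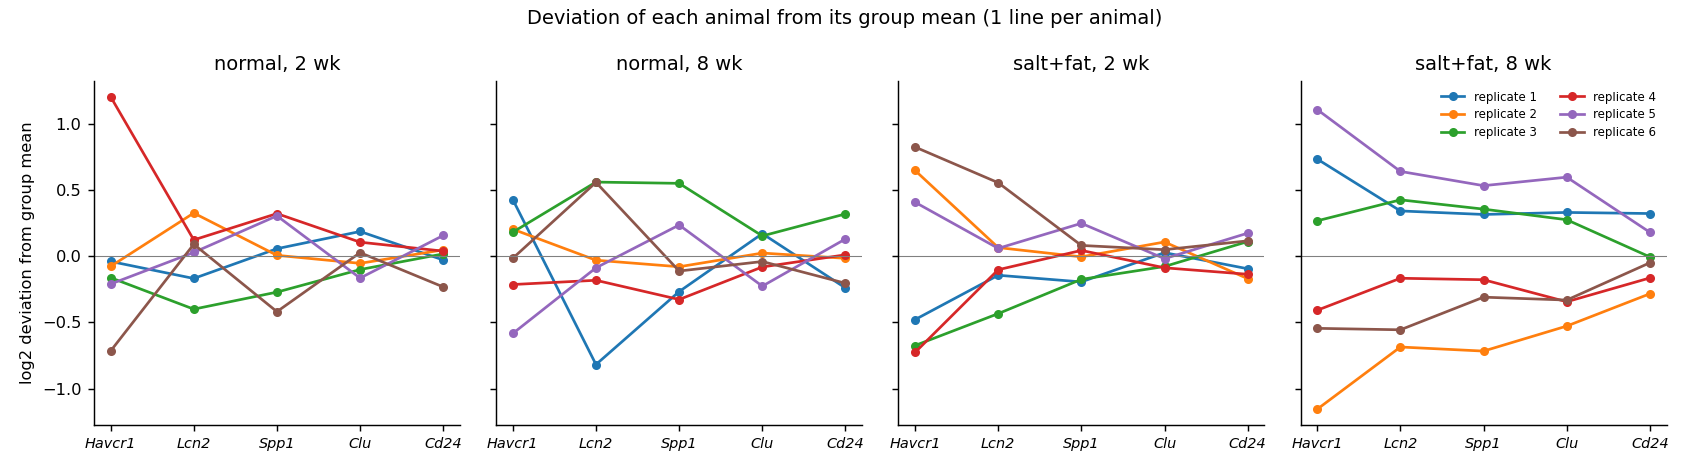
Deviation of each animal from its group mean on the log2 scale for the 5 biomarkers, with 1 line per animal and 1 panel per group. In the 8-week salt-fat panel the line of replicate 2 stays lowest, from -1.16 for Havcr1 to -0.28 for Cd24, and that of replicate 5 runs from 1.11 for Havcr1 to 0.18 for Cd24.

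Over the 6 arrays of that group, the 10 pairs of biomarkers had Pearson correlations from 0.774 (Lcn2 and Cd24) to 0.980 (Lcn2 and Spp1), with a median of 0.959. In exact permutation tests with adjustment over 40 correlations (10 pairs in 4 groups), Havcr1 with Clu (r = 0.978, rho = 0.943) and Lcn2 with Spp1 (r = 0.980, rho = 1) had an adjusted p of 0.0370. By rank, the exact permutation p of these pairs was 0.0167 and 0.00278, each 0.111 after adjustment over 40. Of the 10 pairs, 9 had an unadjusted exact p under 0.05, the exception being Lcn2 with Cd24 (exact permutation p = 0.0806). How many other gene pairs correlated as closely in this group was not computed, so the count is not read as particular to the biomarkers. Without the 2 arrays farthest from the median of the first gene, correlations were 0.657 to 0.998. The GAPDH 3'/5' ratio in replicates 1 to 6 of this group was 1.16, 1.33, 1.07, 1.2, 1.12 and 1.12, so that the kidney with the lowest biomarkers had the highest ratio. Cell type markers also varied between these animals, in part with the biomarkers. The summed signals of the fibroblast and smooth muscle list were 3794, 2425, 3923, 3170, 4644 and 2852 in replicates 1 to 6, the same order of animals as for Lcn2 and Spp1. Those of the proximal tubule list were lowest in replicate 5 (35591) and highest in replicate 2 (42922). Those of the macrophage list were 4669, 4050, 5081, 4521.5, 5532 and 5375 in replicates 1 to 6, highest in replicate 5 and lowest in replicate 2. Replicate 6 was second highest there but lay below replicates 1, 3 and 5 for each biomarker. The part of RNA integrity and of these cell types in the correlations was not tested.

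The other groups had lower median correlations, and the difference between groups in correlation was not tested. On the salt-fat diet at 2 weeks the median correlation of the 10 pairs was 0.477, with 0.833 for Havcr1 and Lcn2 (rho = 0.829, exact permutation p = 0.0125, adjusted p = 0.0625 over 40, and 0.910 without the 2 arrays farthest from the median). On the normal diet the medians were 0.224 at 2 weeks and -0.02 at 8 weeks. At 8 weeks on the normal diet Havcr1 and Clu had a correlation of 0.950 (rho = 0.943, exact permutation p = 0.00278, adjusted p = 0.0370 over 40, and 0.808 without the 2 arrays farthest from the median). By rank, the exact permutation p of this pair was 0.0167, and 0.111 after adjustment over 40. The highest Havcr1 signals of that group, 68.0 and 57.2, were those of replicates 1 and 2, whose lowest signals were raised. There Havcr1 ran from 30.1 to 68.0 and Clu from 575 to 759.5, far below the levels of the other diet.

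**Figure D4:**
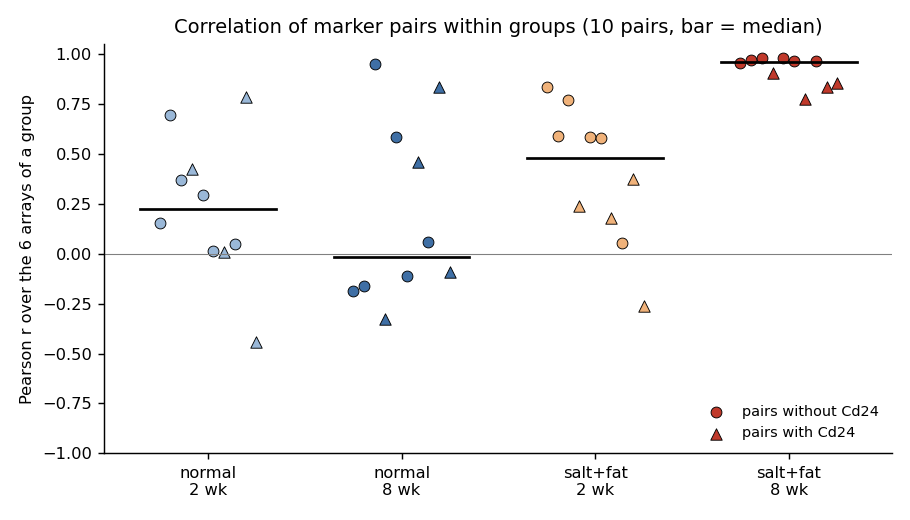
Pearson correlation of each of the 10 biomarker pairs over the 6 arrays of a group, with triangles for pairs that include Cd24 and a bar at the median. All 10 pairs of the 8-week salt-fat group lie between 0.774 and 0.980, and the median of the normal diet at 8 weeks is -0.02.

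Pooled as deviations from the group means over the 24 arrays, 7 of 10 pairs correlated at an adjusted p under 0.05, with 100000 permutations within groups and adjustment over the 10. Many other genes were as close on this measure: by likeness to Havcr1 among 7490 other genes, Clu ranked 8, Spp1 38, Lcn2 123 and Cd24 386, and by likeness to Clu, Havcr1 ranked 17, Spp1 74, Lcn2 135 and Cd24 567. Spp1 and Cd24 had r = 0.758 (rho = 0.725, permutation adjusted p = 9e-04, and r = 0.627 without 2 arrays) and Havcr1 and Clu r = 0.754 (rho = 0.740, permutation adjusted p = 7e-04, and r = 0.731). Lcn2 and Spp1 had r = 0.710 (rho = 0.715, permutation adjusted p = 0.00413, and r = 0.631). Clu and Cd24, with r = 0.401 (rho = 0.240), were not called (permutation adjusted p = 0.142, and r = 0.190). The 8-week salt-fat kidneys supplied 82.1% of the within-group squares of Clu and 37.3% to 50.2% of those of the others. Without replicate 2 or replicate 5 of that group 4 pairs were called. Within the normal-diet groups alone 1 pair was called, and within the salt-fat groups alone 8.

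Several other genes followed the same course, ranked by Pearson correlation over the 24 arrays among 7490 other genes that passed the filter and given without a test, because differences between the groups dominate such values. Nearest to Havcr1 were Adamts1, a secreted metalloproteinase (0.953), Clu (0.944), the metalloproteinase inhibitor Timp1 (0.944), the phosphate transporter Slc34a2 (0.930) and Tmem176a (0.920). Nearest to Clu were Havcr1, Adamts1 (0.933), Timp1 (0.925), the macrophage glycoprotein gene Gpnmb (0.917) and heme oxygenase Hmox1 (0.908). Nearest to Lcn2 were Spp1 (0.949), Tmem176a (0.942), the actin crosslinker Flna (0.930), the tubulin gene Tubb5 (0.929) and Slc34a2 (0.914). Nearest to Spp1 were the calcium-binding S100a11 (0.960), Lcn2, Cd24 (0.944), the annexin gene Anxa2 (0.930) and the tropomyosin gene Tpm1 (0.928). Nearest to Cd24 were S100a11 (0.970), Spp1, the acyl-CoA synthetase gene Acsl5 (0.940), Anxa5 (0.938) and desmoplakin Dsp (0.928). Havcr1 and Clu were thus each near the top of the other's list, as were Lcn2, Spp1 and Cd24 in a chain, whereas Clu ranked 319 among the 7490 genes by likeness to Cd24.

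The genes were also ranked on deviations from the group means. For Havcr1 they were Ifi27 (0.838), the glutathione peroxidase gene Gpx2 (0.824), the fibrinogen chain gene Fga (0.810), Slfn4 (0.798) and Adamts1 (0.773). For Clu they were the myosin light chain gene Myl12a (0.891), Hmox1 (0.828), Rbm3 (0.827), Serpina10 (0.808) and Gpx2 (0.796). For Spp1 they were Tspan8 (0.823), S100a11 (0.817), Slc34a2 (0.815), decorin Dcn (0.778) and the receptor kinase gene Axl (0.778). For Cd24 they were Slc34a2 (0.774), Spp1 (0.758), Cpne8 (0.715), Cd44 (0.709) and S100a11 (0.707). For Lcn2 they were Ran (0.756), Hmgn3 (0.754), Serpina10 (0.743), S100a11 (0.731) and Il3ra (0.711). Adamts1 for Havcr1, Hmox1 for Clu, S100a11 for Spp1 and both S100a11 and Spp1 for Cd24 were among the nearest 5 by both measures.

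Among other tubular injury and repair genes, those that passed the test for diet all rose. Of 37 listed, 34 were on the array and 26 passed the filter. At 8 weeks 17 rose and 0 fell, with a median difference of 0.74 against -0.0015 over all probe sets tested. S100a6 rose by 1.87 ± 0.20, S100a11 by 1.18 ± 0.10, Anxa2 by 1.15 ± 0.14 and S100a10, the partner of annexin A2, by 0.94 ± 0.13. At 2 weeks 5 rose and 0 fell, with a median of 0.22 against 0.02. Over all probe sets 4.19% were called lower at 2 weeks and 3.51% at 8 weeks. The genes that rose at 2 weeks were S100a6 (1.44 ± 0.20), S100a11 (0.75 ± 0.10), Anxa2 (0.65 ± 0.14), the keratin gene Krt18 (0.58 ± 0.16) and the adhesion molecule gene Vcam1 (0.42 ± 0.13). The mesenchymal filament gene Vim was called in the interaction (0.99 ± 0.21, adjusted p = 0.0247), 1 of 26 in that comparison.

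**Figure D5:**
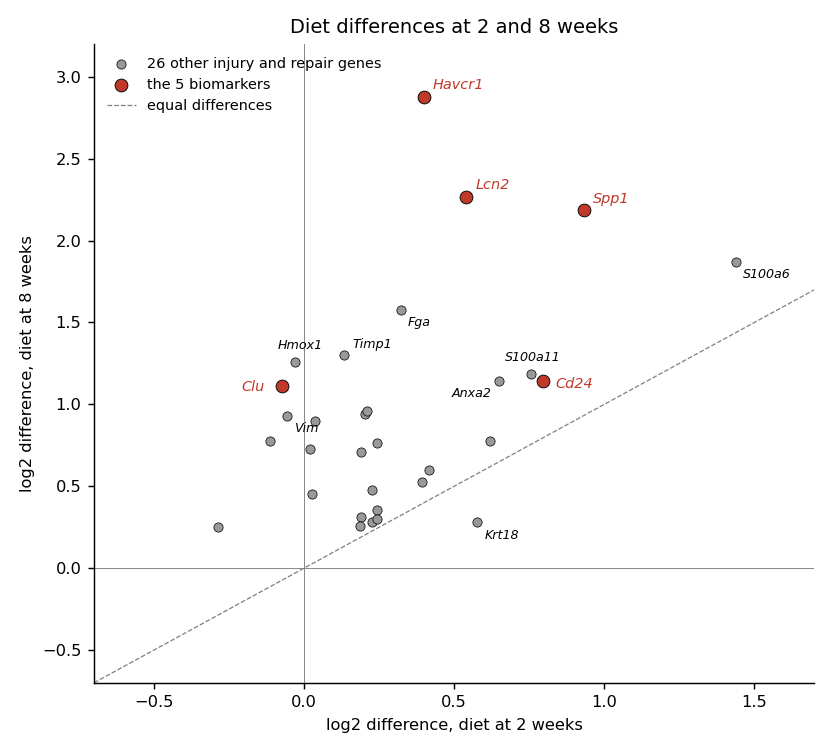
Log2 difference between the diets at 8 weeks against that at 2 weeks for the 5 biomarkers and the 26 other injury and repair genes tested, with a dashed line of equal differences. Clu (-0.08 and 1.11) lies near the 2-week zero line and Havcr1 (0.40 and 2.88) to the right of it. Cd24 (0.79 and 1.14) lies beside S100a11 (0.75 and 1.18).

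Genes of other urinary kidney markers did not share a direction. Of 21 listed, all on the array, 19 passed the filter. Over all probe sets tested, 5.63% were called higher and 3.51% lower at 8 weeks, and 4.55% and 4.19% at 2 weeks. At 8 weeks 3 rose and 1 fell, with a median of 0.05. Timp1 rose by 1.30 ± 0.20, Vim, also on the injury list, by 0.93 ± 0.15 and the glutathione transferase gene Gstp1 by 0.38 ± 0.08, whereas Calb1, the calcium-binding calbindin of the distal tubule, fell by 0.58 ± 0.10. At 2 weeks 2 rose and 2 fell, with a median of 0.03: Gstp1 (0.42 ± 0.08) and Fabp3 (0.29 ± 0.09) rose, and B2m, the gene of beta-2 microglobulin (-0.26 ± 0.07), and Alb, that of albumin (-1.66 ± 0.41), fell.

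Among receptors and proteases of osteopontin, 18 were listed. Of these, 12 were on the array and 9 passed the filter. Over all probe sets tested, 5.63% were called higher and 3.51% lower at 8 weeks, and 4.55% and 4.19% at 2 weeks. With 9 genes tested, the counts that follow are not read as particular to the list. At 8 weeks 2 rose and 0 fell, with a median of 0.11. The receptor genes Cd44 and Itgb1, an integrin beta chain, rose by 0.71 ± 0.19 and 0.32 ± 0.10, while the protease genes Mmp2 (0.17 ± 0.09) and Plau (0.11 ± 0.08) were not called. At 2 weeks 0 rose and 1 fell, the gelatinase gene Mmp9 (-0.73 ± 0.21). The Mmp9 diet difference at 8 weeks was 0.14 ± 0.21. On the normal diet alone Mmp9 differed by -0.78 ± 0.21 between 2 and 8 weeks, which was not called (limma adjusted p = 0.211).

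Few partners of NGAL, clusterin and KIM-1 were called, and in both directions. Of 24 listed, 19 were on the array and 17 passed the filter. At 8 weeks 3 rose and 1 fell, with a median of 0.06. Lrp2, the gene of megalin, which takes up filtered NGAL and clusterin in the proximal tubule, fell by 0.33 ± 0.07 at 8 weeks and by 0.26 ± 0.07 at 2 weeks. Stat3, a transcription factor of the acute phase response, rose by 0.56 ± 0.13 at 8 weeks and 0.45 ± 0.13 at 2 weeks. Axl, a receptor for the clearance of dying cells, and Nfkb1 rose at 8 weeks by 0.36 ± 0.09 and 0.29 ± 0.09. At 2 weeks 1 rose and 2 fell, the other being Adam10, a protease that sheds membrane proteins (-0.45 ± 0.14), with a median of 0.0026. Over all probe sets tested, 4.55% were called higher and 4.19% lower at 2 weeks, and 5.63% and 3.51% at 8 weeks. With 17 partners tested, these counts are not read as particular to them. Of 8 lipocalin family genes on the array, 4 passed the filter, and Lcn2 was the 1 called at 8 weeks, beside Rbp4 (0.34 ± 0.17), Ambp (-0.05 ± 0.12) and Ptgds (-0.31 ± 0.16).

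Some macrophage and fibroblast markers rose with the biomarkers at 8 weeks, and some proximal tubule markers fell. Of 7 endothelial genes tested 0 rose and 1 fell then, and of 5 podocyte genes 0 rose and 1 fell. Among 3 lymphocyte genes and 4 erythroid and platelet genes tested, 0 rose and 0 fell. Of 21 macrophage and myeloid genes, 16 were on the array and 13 passed the filter, and 6 rose and 0 fell at 8 weeks, with a median of 0.33. They included Gpnmb (1.21 ± 0.17), C1qa (0.57 ± 0.09), the lysosomal Cd68 (0.90 ± 0.14) and Laptm5 (0.73 ± 0.15). Their summed signal was 4050 to 5532 on the salt-fat diet and 3348 to 3999 on the normal diet at 8 weeks, and 3392 to 3959 against 3674 to 4198 at 2 weeks, when limma called 0 of 13 (2 at an unadjusted p under 0.05, as were 22.8% of all probe sets) and Spp1 and Cd24 had risen. Of 11 fibroblast and smooth muscle genes, 9 passed the filter, 5 rose and 0 fell at 8 weeks, led by Col1a1 (1.80 ± 0.20), Tagln (1.69 ± 0.21), Col3a1 (0.93 ± 0.14) and Col1a2 (0.86 ± 0.15). Their sum was 2425 to 4644 against 1745 to 2046. Of 15 proximal tubule genes, 0 rose and 5 fell at 8 weeks, with a median of -0.20, and Slc5a2, the glucose transporter of the early segment, fell by 0.71 ± 0.13 and the anion transporter gene Slc22a6 by 0.41 ± 0.08. At 2 weeks 8 of the 15 fell, with a median of -0.28, the transcription factor gene Hnf4a by 0.74 ± 0.13. No marker of these lists was at 0 on all arrays, and the part of these cell types in the biomarker levels was not tested.

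Some collecting duct and thick ascending limb genes also rose with the diet at each time. Of 13 collecting duct genes, 11 were on the array and tested, 6 rose and 1 fell at 2 weeks, with a median of 0.44, and their sum was 4352 to 5022 on the salt-fat diet and 3184 to 3584 on the normal diet. Aqp4 (1.97 ± 0.16), Aqp3 (0.73 ± 0.08) and Aqp2 (1.16 ± 0.14), all water channels, had the smallest p, followed by the sodium pump regulator gene Fxyd4 (1.02 ± 0.14). At 8 weeks 4 collecting duct genes rose and 0 fell, with a median of 0.14, among them Aqp4 (1.15 ± 0.16) and Aqp2 (0.73 ± 0.14), and the sum was 4106 to 4928 against 3337.5 to 3901. In the thick ascending limb list, with 8 tested, 4 rose and 0 fell at 2 weeks at a median of 0.39, and the summed signal was 8848 to 11123 against 8197 to 9653. At 8 weeks 2 of the 8 rose and 0 fell, at a median of 0.37, and the summed signals overlapped, at 8510.5 to 10516.5 against 7799 to 9709. Psca, a gene of the urothelium and papillary surface, rose by 3.24 ± 0.27 at 2 weeks and 2.83 ± 0.27 at 8 weeks, 1 of 2 genes tested from a list of 8, the other being Krt5 (-0.26 ± 0.18 and -0.14 ± 0.18). Of 4 adipocyte genes tested, 3 fell at 2 weeks, among them Fabp4 (-2.58 ± 0.72) and Adrb3 (-0.87 ± 0.22), and at 8 weeks 1 rose. The adipocyte sum varied widely between normal-diet kidneys. It was 121 to 247 on the salt-fat diet and 204 to 1752.5 on the normal diet at 2 weeks. At 8 weeks it was 285 to 574.5 against 122.5 to 1414. The part of these segments and cells in the Spp1 and Cd24 levels was not tested.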

How the data were processed

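Kidney RNA of 24 rats was measured on 1 Affymetrix array each. The deposited values are linear intensity values, 1 per probe set and array, made with MAS5 per the submitters' processing notes. The scanner, MAS5 version, scaling target and detection calls are not given in the sources used here. Trimmed means (2% at each end) were 150.034 to 150.042 on the arrays, so the authors' intensity values had been scaled to a common level. MAS5 signals near the background are imprecise, which touches Havcr1 and Lcn2 in every group except the salt-fat group at 8 weeks, and so the size of their diet differences at both times. The number of arrays limits the precision.

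Symbols of 12783 probe sets with 1 gene came from the platform annotation and were checked through Entrez identifiers against RefSeq (GRCr8), which changed 0. Values were log2(signal + 7.2), 7.2 being 0.1 times the median of the array medians. The 10208 probe sets above the 40th percentile (44.5 to 54.5) in at least 6 arrays were tested in R 4.3.3 with limma 3.58.1 (group means of all 24 arrays, eBayes with intensity trend, two-sided, calls at an adjusted p under 0.05). Of the 6 member probe sets, 5 passed. Other genes are given by their probe set of highest mean. Correlations and ratios between biomarkers were tested by permutation in Python 3.11.15 with NumPy 2.4.6, and the tests of ratios were added after the values were seen. The procedures were tested on simulated data. From each list up to 4 genes of smallest p were named, beside the 5 most similar genes of each biomarker and all genes called at 2 weeks on the injury list. The members, gene lists and tests were chosen with earlier results of these data known.

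Alternatives were other pseudocounts, normalizations, filters and eBayes settings, weighted arrays, a block for replicate number, a fit restricted to the compared groups, omission of each array and of 2 normal-diet arrays, a covariate (GAPDH ratio or spike-in level), and averaged Clu probe sets. Replicate numbers are shared between groups, but same-numbered arrays did not deviate together throughout: correlations of their deviations were -0.0664 to 0.103 between the diets at 2 weeks, -0.0318 to 0.0320 at 8 weeks, -0.0747 to 0.145 between the times on the normal diet and -0.104 to 0.162 on the salt-fat diet, where 3 of 6 pairs were over 0.1. Not every pair was over 0.1 in any comparison, so the numbers were not taken to pair the animals.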

Additional observations from a re-analysis of the deposited data

Results flagged for a closer look

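The Havcr1 signal of normal-diet replicate 4 at 2 weeks, 94.7, stood apart from the other 5 kidneys of its group, which had 19.7 to 35.8, by a gap of 0.648 of the group's range on the log2 scale. It was the only one of 24 sets of 6 values past Dixon's critical value, and chance alone passes it in about 1 of 20 sets. Without this array the Havcr1 diet difference at 2 weeks was 0.64 and was again not called (limma adjusted p = 0.248; 0.248 to 0.871 over 26 other settings).

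The diet difference changed between 2 and 8 weeks in 4 biomarkers by limma's interaction test: by 2.48 for Havcr1, 1.73 for Lcn2, 1.25 for Spp1 and 1.19 for Clu, each larger at 8 weeks. The calls of Havcr1, Lcn2 and Spp1 were absent with either covariate, and that of Clu with the spike-in level. The values there were 2.31, 1.71 and 1.17 for Havcr1, Lcn2 and Spp1 with the GAPDH ratio, and 2.89, 1.45, 1.08 and 1.30 for Havcr1, Lcn2, Spp1 and Clu with the spike-in level.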

How the results depend on the processing

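Over 42 settings, 1164 of 1238 recomputed values were classed as unchanged. For differences and correlations this means the same direction and the same side of the threshold. Counts were classed as unchanged after a small shift too, such as 3 in place of 4 for the interaction with averaged Clu probe sets. The counts of biomarkers called for diet at 2 weeks (2), diet at 8 weeks (5) and time on the normal diet (0) were the same in each setting run. For the interaction, 1 was called with the GAPDH ratio as a covariate and 0 with the spike-in level as a covariate, where limma called 0 probe sets in all, and 4 in each array left out. With either covariate the diet comparisons called 2 and 5 biomarkers. For time on the salt-fat diet 4 to 5 were called over the arrays left out. The 7 correlated pairs became 4 to 9 over the arrays left out, 1 on the normal diet alone and 8 on the salt-fat diet alone. With the replicate number as a block the counts were 2, 5, 4, 0 and 5, with 7 pairs, so that the block changed no count. Among the differences, directions turned for values that were not called. Clu at 2 weeks had 0.11 with the GAPDH ratio and 0.0118 with the mean of both probe sets. Lcn2 for time on the normal diet had 0.0231 with array weights, 0.15 without normal-diet replicates 1 and 2 at 8 weeks, 0.0906 with the spike-in level, and -0.18 to 0.10 over the arrays left out. In the same comparison and over the arrays left out, Spp1 had -0.0355 to 0.14 and Cd24 -0.0288 to 0.0830. On the normal diet alone, correlations turned for Havcr1 and Lcn2 (-0.0233) and Lcn2 and Clu (-0.0701), both called over all 24 arrays, and for Clu and Cd24 (-0.21), which was not. Over all probe sets, limma called 892 for diet at 2 weeks (314 with the GAPDH ratio, 482 with the spike-in level), 933 at 8 weeks (542 without normal-diet replicates 1 and 2, 497 with the spike-in level, 543 and 579 without salt-fat replicate 1 or 5), 39 for the interaction (0 to 80 over all settings), 360 for time on the salt-fat diet (220 to 632) and 4 on the normal diet (0 to 10). The cause of these changes was not tested. Low signals limit the 2-week values of Havcr1, whose SE was 0.33.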
